A study of Zea mays with 2 samples.

Results

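The regions described here were the large level 0 domains of maize chromatin, the outermost folding domains found by hierarchical domain calling in Hi-C data, that spanned at least 800 kb and held no domain of level 3 or higher. They were chosen by values measured in these same data, the size of each domain and the depth of nesting inside it, so both are given as a description only. Replicate 1 had 178 of them among 7131 level 0 domains (2.5%), and replicate 2 had 173 among 7257 (2.38%), which came to 351 of 14388 in all. A further 156 and 153 level 0 domains were as large but held a domain of level 3 or higher, and these were kept apart.

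In Hi-C, DNA segments that lie close together in the nucleus are cross-linked and ligated, and a domain is a stretch of chromosome whose parts contact each other more often than they contact the sequence outside. In large plant genomes such as maize these TAD-like domains tend to follow blocks of active or silent chromatin. A chromatin loop is a pair of short segments, its anchors, that contact each other more often than their surroundings do. Maize loops often join gene-rich islands across long stretches of repeats.

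The study profiled whole leaf tissue of the inbred line B73 at development stage v04, from untreated plants grown in a greenhouse under normal light and temperature, as 2 biological replicates of 1 condition. Each replicate pooled several plants, and a leaf mixes many cell types, so a domain or loop is an average over them. Domains and loops had been called in each replicate separately, on the B73 AGPv4 genome. With 2 replicates and a single condition no test between groups was possible, so each value is given for both replicates, with Wilson intervals on shares and exact Poisson intervals on densities, both at 95% and for counting error only.

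The members were, by their selection, large. Their size ranged from 800 to 2500 kb in replicate 1, and from 800 to 2150 kb in replicate 2. The medians were 980 and 960 kb. The middle of the distribution lay between 872.5 and 1130 kb in replicate 1 and between 860 and 1150 kb in replicate 2. Only 84 and 75 members reached 1 Mb. Together they held 193.69 Mb in replicate 1 and 184.45 Mb in replicate 2, or 9.20% and 8.76% of chromosomes 1 to 10. The median level 0 domain of either replicate was 210 kb long.

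Domain sizes fell on a 10-kb grid, so the threshold divided domains that differed by a single step. In replicate 1, 6 members measured exactly 800 kb and held 2 to 6 sub-domains and 0 to 8 loops, while the 6 domains of 790 kb without a level 3 domain held 3 to 7 sub-domains and 1 to 7 loops. In replicate 2, 2 members measured 800 kb and held 4 and 11 sub-domains and 5 and 17 loops, while the 9 domains of 790 kb held 3 to 6 sub-domains and 1 to 15 loops. The domain at chr1:70300001-71100000 was the first of replicate 1 just inside the threshold and that at chr1:192110001-192900000 the first just outside it. In replicate 2 these were chr1:233710001-234510000 and chr1:242200001-242990000, and the latter, 790 kb long, would have been left out for its level 3 domain as well.

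The 3 largest members of replicate 1 lay at chr2:163090001-165590000 (2500 kb), chr1:187200001-189590000 (2390 kb) and chr7:63520001-65700000 (2180 kb). They held 7, 6 and 2 loops. The 3 largest of replicate 2 lay at chr7:59260001-61410000 (2150 kb), chr6:103250001-105390000 (2140 kb) and chr4:38950001-40970000 (2020 kb). These held 1, 4 and 16 loops. The 2020-kb member thus held more loops than any of the other 5.

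All chromosomes carried large level 0 domains in both replicates. Chromosome 7 had the most for its length, with 25 and 21 members in replicates 1 and 2, or 12.6 ± 1.55 per 100 Mb (SD, n = 2). Chromosome 8 had the fewest for its length in the mean of both replicates, with 10 and 9, or 5.25 ± 0.39 per 100 Mb, although chromosome 6 had fewer in replicate 1 (9 members, 5.17 against 5.52 per 100 Mb). The means of chromosomes 7 and 8 lay further apart than either pair of replicates, but their counting intervals overlapped in both replicates. They were 8.87 to 20.2 against 2.65 to 10.2 per 100 Mb in replicate 1 and 7.13 to 17.6 against 2.27 to 9.43 in replicate 2. In replicate 2 chromosome 3 came close to chromosome 7, at 11.46 against 11.52 per 100 Mb. Chromosome 3 was the least repeatable, with 15 members in replicate 1 and 27 in replicate 2, followed by chromosome 9 with 20 and 13 and chromosome 4 with 29 and 20.

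Along the chromosomes the members were not spread evenly. Of the members, 41.0% in replicate 1 (34.0 to 48.4%) and 42.2% in replicate 2 (35.1 to 49.6%) had their centre between relative positions 0.2 and 0.5, against 23.1% and 22.6% of all level 0 domains and 30.5% and 30.6% of those of 300 to under 800 kb. This was not particular to the members, since large domains with a level 3 domain had 51.3% (43.5 to 59%) and 49.0% (41.2 to 56.9%) there. By length, 41.8% and 43.1% of the members' sequence lay there, against 30.0% of all level 0 sequence in each replicate. The share of level 0 length held by members was also computed in bins of 0.1 of the chromosome length. It was highest between 0.2 and 0.3 in replicate 1 (15.6%) and between 0.3 and 0.4 in replicate 2 (16.5%). It was lowest between 0.9 and 1 in replicate 1 (4.88%) and between 0.7 and 0.8 in replicate 2 (4.91%). The span 0.2 to 0.5 was not among the planned settings and contains the highest bin of each replicate. Its shares are therefore a description only. With each chromosome cut into 3 parts of equal length, the left, middle and right parts held 67, 67 and 44 members in replicate 1. In replicate 2 they held 58, 73 and 42.

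By count, the chromosome middle set the members apart from all level 0 domains but not from the next smaller class. Between relative positions 0.3 and 0.7 lay 44.4% (37.3 to 51.7%) of the members of replicate 1 and 48.6% (41.2 to 56.0%) of those of replicate 2, or 46.5 ± 2.95% (SD, n = 2). The same span held 33.5% of all level 0 domains in each replicate, which is below both intervals, but 41.7% and 41.3% of the domains of 300 to under 800 kb, which is inside them. The large domains with a level 3 domain were more central still in replicate 1, at 62.2% (54.4 to 69.4%), while in replicate 2 their 53.6% (45.7 to 61.3%) overlapped the interval of the members. The outermost bins, below 0.1 and above 0.9, held only 21 members (11.8%) in replicate 1 and 25 (14.5%) in replicate 2, against 25.3% and 25.04% of all level 0 domains. By length they held 12.0% and 15.2% of the members' sequence, against 19.8% of all level 0 sequence in each replicate. The positions of centromeres were not in the files used here, so no distance to them was measured.

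**Figure D1:**
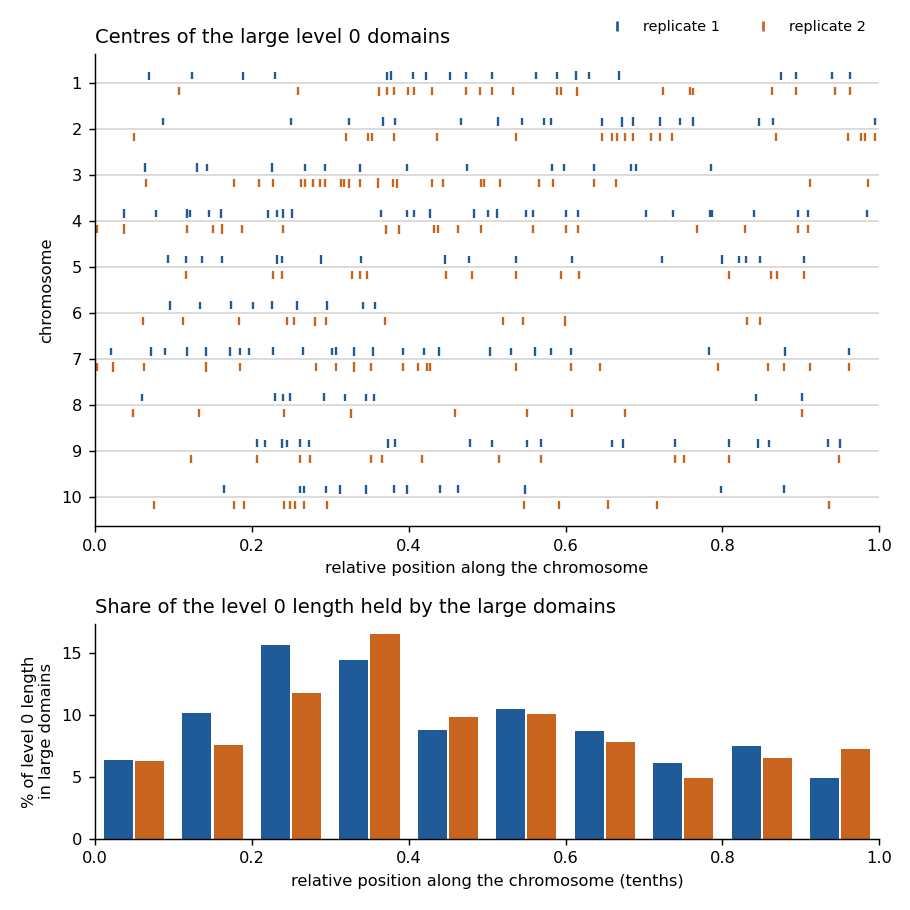
Upper panel, each tick is the centre of 1 large level 0 domain at its relative position (0 to 1) on chromosomes 1 to 10, replicate 1 in blue and replicate 2 in orange. Lower panel, the share of level 0 length in % that these domains held in each bin of 0.1 of the chromosome length, with the highest bars at 15.6% between 0.2 and 0.3 (replicate 1) and 16.5% between 0.3 and 0.4 (replicate 2).

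Large level 0 domains lay among much smaller neighbours. The level 0 domains next to them were 210 and 240 kb long at the median in replicates 1 and 2, close to the median of all level 0 domains. Direct neighbours of each other were 4 pairs of members in replicate 1 and 6 pairs in replicate 2. Most members, 170 of 178 and 161 of 173, touched another level 0 domain on both sides with no gap. Neither the number of pairs at random order nor the share of touching domains among all level 0 domains was computed. Both values are therefore no result particular to the members.

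Nearly every member was divided into sub-domains. Sub-domains were present in 98.9% of the members of replicate 1 and 97.7% of those of replicate 2 (98.3 ± 0.84%, SD, n = 2). The shares were 40.9% and 42.9% of all level 0 domains and 80.5% and 83.2% of those of 300 to under 800 kb. Large domains with a level 3 domain all have sub-domains by their definition. The sub-domains of the members numbered 1079 in replicate 1, of which 637 were of level 1 and 442 of level 2. In replicate 2 they numbered 1020, of which 560 were of level 1 and 460 of level 2. The median member held 6 sub-domains in both replicates, with quartiles of 4 and 7, and the highest numbers were 15 and 17. Nesting stopped at level 1 in 28 and 22 members and went on to level 2 in 148 and 147, a depth that the selection itself bounds.

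Level 1 sub-domains tiled the members almost without gaps. They covered the whole length in 175 of 178 members of replicate 1 and 167 of 173 of replicate 2, and no member held exactly 1 of them. Neither count was computed for other level 0 domains, so neither is a result particular to the members. A split in 2 was the most common single arrangement, found in 55 and 66 members, while 45 and 43 were split in 3 and 76 and 60 in 4 or more. The largest level 1 sub-domain took up a median of 48.3% of its member in replicate 1 and 51.2% in replicate 2. The median level 1 sub-domain of a member was 250 kb long in replicate 1 and 270 kb in replicate 2, against 190 kb in both replicates for those inside level 0 domains of 300 to under 800 kb. Members accordingly held fewer level 1 sub-domains per Mb than that class, 3.29 against 3.94 in replicate 1 and 3.04 against 4.09 in replicate 2.

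The undivided members numbered 2 and 4 and measured 830 to 1000 kb. In replicate 1 they were chr5:106260001-107090000 (830 kb, no loop) and chr5:119720001-120600000 (880 kb, 1 loop). In replicate 2 they were chr2:86060001-86900000 (840 kb, 3 loops), chr3:73570001-74430000 (860 kb, no loop), chr3:104270001-105170000 (900 kb, 2 loops) and chr8:43200001-44200000 (1000 kb, 2 loops). None of these 6 was the same level 0 domain in the other replicate. They were singled out after their values were seen.

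Loops were sparser in large level 0 domains than in smaller ones over all chromosome positions. With both anchor midpoints inside the domain, members held 878 loops in replicate 1, or 4.53 per Mb (4.24 to 4.84), and 1144 in replicate 2, or 6.20 per Mb (5.85 to 6.57). Level 0 domains under 800 kb held 5.63 per Mb in replicate 1 (5.52 to 5.74) and 8.2 in replicate 2 (8.07 to 8.34). The ratio of members over smaller domains was 0.805 in replicate 1 and 0.756 in replicate 2 (0.781 ± 0.035, SD, n = 2), further from 1 than the spread between replicates. The 2 loop lists differ in length and in anchor size, so densities are compared only within a replicate.

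The trend over size was not a straight one. Density rose from 4.65 and 5.62 loops per Mb in domains under 100 kb to 5.26 and 7.59 in those of 100 to under 300 kb and 5.96 and 8.85 in those of 300 to under 800 kb, and was lower again in the members. A small domain cannot hold a long loop, so the class of 300 to under 800 kb is the nearest comparison, and against it the ratio was 0.760 in replicate 1 and 0.701 in replicate 2. Loops of at most 100 kb are short enough to fit in any domain of these 2 classes. Of such loops, members held 1.77 per Mb (1.59 to 1.97) against 2.86 (2.75 to 2.97) in domains of 300 to under 800 kb in replicate 1. In replicate 2 they held 2.95 (2.71 to 3.21) against 4.37 (4.24 to 4.51). Large domains with a level 3 domain had the lowest densities of all, 3.69 and 5.35 loops per Mb.

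Within the members the same gradient went on. Members of 800 to under 1000 kb held 5.07 loops per Mb (4.6 to 5.58) in replicate 1 and 7.65 (7.08 to 8.26) in replicate 2. Members of 1000 to under 1500 kb held 4.44 (3.98 to 4.95) and 5.74 (5.17 to 6.36). The 19 members of 1500 kb or more in each replicate held 3.48 (2.89 to 4.14) and 3.39 (2.80 to 4.07), so the smallest and the largest of these 3 bins did not overlap in either replicate. The largest were also more often in the chromosome middle, 52.6% and 57.9% of them against 46.8% and 43.9% of the smallest bin, and the part of position in this gradient was not tested.

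Loop density depended on where along the chromosome the domain lay, and the pooled difference was not found everywhere. The ratio of loops per Mb in members over all smaller level 0 domains was 0.697 and 0.647 in the left part of the chromosomes, 0.816 and 0.705 in the middle part and 1.07 and 1.11 in the right part, with each chromosome cut into 3 parts of equal length. In the right part the densities were 7.64 per Mb in members (6.87 to 8.47) against 7.17 (6.96 to 7.39) in replicate 1 and 11.5 (10.5 to 12.5) against 10.3 (10.1 to 10.6) in replicate 2. The intervals overlapped in both replicates, and the difference in the right part was not tested. Against domains of 300 to under 800 kb alone the ratios in the right part were 0.933 and 0.949. When the density of all smaller domains was applied to the members bin by bin of 0.1 of the chromosome length, the ratio rose to 0.903 (0.845 to 0.965) in replicate 1 and 0.847 (0.799 to 0.898) in replicate 2. No loop list was used to choose the members, but a replicate's own loops come from the same library as its domains. With the loops of the other replicate, that position-matched ratio was 0.983 (0.932 to 1.04) for the members of replicate 1 and 0.881 (0.821 to 0.945) for those of replicate 2. For replicate 1 this interval includes 1, so a lower number of loops inside was not detectable there against all smaller domains at matched positions. Against domains of 300 to under 800 kb alone, the position-matched ratios were 0.824 (0.771 to 0.881) and 0.759 (0.715 to 0.804). With the loops of the other replicate they were 0.881 (0.836 to 0.929) and 0.812 (0.757 to 0.870), and all of these intervals lay below 1.

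Loop anchors, counted one by one whichever way their loop went, gave ratios further from 1 than loops inside did. An anchor counts once for each loop it belongs to, whether or not its partner lies in the same domain. Anchors whose partner lay outside the domain had ratios over all smaller domains of 0.261 and 0.215, and domain size partly sets their number. Members held 10.7 anchors per Mb (10.2 to 11.2) in replicate 1 and 14.6 (14.1 to 15.2) in replicate 2. All smaller level 0 domains held 17.5 and 26.7, and those of 300 to under 800 kb held 15.4 and 23.4. The ratio over all smaller domains was 0.611 and 0.548 (0.580 ± 0.045, SD, n = 2), and it stayed below 1 in the left (0.525 and 0.476), the middle (0.624 and 0.520) and the right part (0.801 and 0.786). Matched by position in the same way, it was 0.675 (0.646 to 0.705) and 0.608 (0.585 to 0.632), and with the loops of the other replicate 0.697 (0.673 to 0.722) and 0.650 (0.621 to 0.680).

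**Figure D2:**
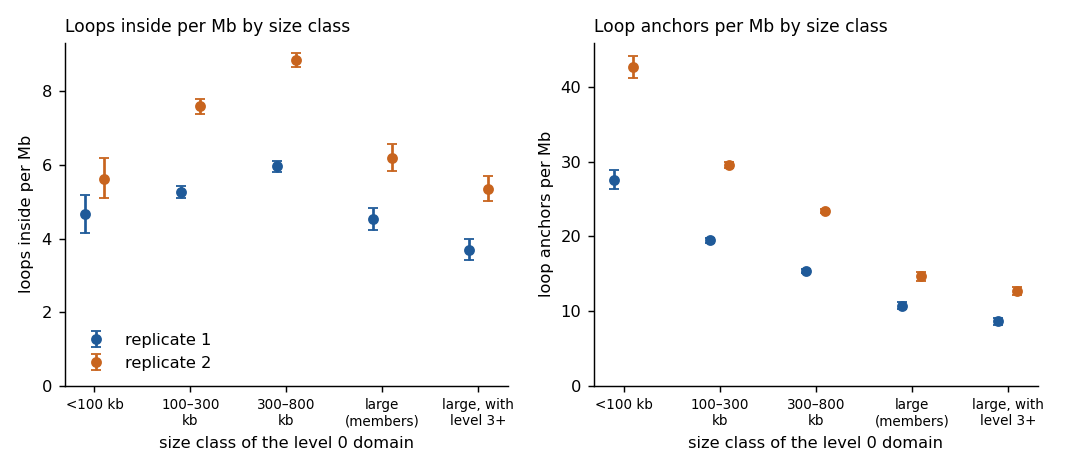
Loops inside per Mb (left) and loop anchors per Mb (right) for level 0 domains by size class, replicate 1 in blue and replicate 2 in orange, with exact 95% Poisson intervals as bars. Loops per Mb peaked in domains of 300 to under 800 kb (5.96 and 8.85) and were 4.53 and 6.20 in the members, while anchors per Mb were lower in each larger class.

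Few anchors in the members belonged to loops that left the domain. There were 315 such crossing anchors in replicate 1 and 407 in replicate 2, or 1.63 and 2.21 per Mb, against 3.43 and 5.68 in domains of 300 to under 800 kb. A longer domain has fewer ends per Mb for a loop to cross, so this difference is partly set by size.

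Single members differed widely in loop number. The median member held 4 loops in replicate 1 and 5 in replicate 2, with quartiles of 2 and 7 in replicate 1 and of 2 and 10 in replicate 2. At least 10 loops were present in 25 and 49 members. No loop at all was found in 16 members of each replicate, 8.99% (5.61 to 14.1%) and 9.25% (5.77 to 14.5%), and 5 and 7 of these had no loop in the list of the other replicate either. By count this is fewer empty domains than among those of 300 to under 800 kb (17.0% and 12.6%), which have less length to hold a loop, and only in replicate 1 did the intervals separate.

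The richest member of replicate 1 lay at chr9:134030001-135960000, was 1930 kb long and held 18 loops and 13 sub-domains, all of level 1. The loop list of replicate 2 had 28 loops in the same interval, where the domain was cut into smaller ones. The richest member of replicate 2, at chr1:32800001-33610000, was only 810 kb long and held 26 loops, or 32.1 per Mb, and the list of replicate 1 placed 19 loops there. Both regions were thus loop-rich in either library.

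The largest member without a loop lay at chr4:104940001-106350000 (1410 kb) in replicate 1, where 1 loop was found in the list of replicate 2. In replicate 2 it lay at chr4:8370001-10360000, spanned 1990 kb and contained not a single anchor, and replicate 1 had 1 loop there. Its counterpart in replicate 1 was a level 0 domain of 1940 kb that covered 97.5% of it. A count of 0 loops is bounded by the depth of each library, and the lists do not state that depth for regions without a loop.

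The loops inside the members were mostly short compared with the domains. Their median length was 130 kb in replicate 1 and 110 kb in replicate 2, and only 3.99% and 4.28% of them were longer than 50% of their member. The longest measured 975 kb and 940 kb. Of the loops of 500 kb or more that lay inside a level 0 domain, 41 of 153 in replicate 1 and 37 of 169 in replicate 2 were in members. Large domains with a level 3 domain held 58 and 62 of them, and domains of 300 to under 800 kb held 54 and 70. A small domain cannot hold so long a loop, so size partly sets these counts. The median loop of a member rested on 21 contacts in replicate 1 and 30 in replicate 2, which was 4.86 and 4.39 times the local background. Domains of 300 to under 800 kb had medians of 21 and 33 contacts and of 4.78 and 4.16 times, and both measures of the members lay close to these.

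The loops were also set against the sub-domains of the members. Both anchors lay in the same level 1 sub-domain for 65.7% of the loops in replicate 1 (62.5 to 68.8%) and 70.0% in replicate 2 (67.3 to 72.6%), while 34.1% and 29.4% joined different level 1 sub-domains. An anchor within 2 kb of a sub-domain boundary inside the member was present in 41.6% (38.4 to 44.9%) and 43.4% (40.5 to 46.2%) of the loops. Loops of this length often fit inside a sub-domain of the median size, and no background share was computed for these values. Loops that joined both boundaries of one sub-domain were rarer, 51 (5.81%) and 75 (6.56%). Of the members' loops, 45.0% in replicate 1 and 27.8% in replicate 2 were also in the other list, with both anchors overlapping those of a loop there by at least 1 bp, shares that lay close to those of domains of 300 to under 800 kb (46.6% and 30.7%).

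Anchors were densest at the edges of the members. The first 10 kb from either boundary held 43.0 anchors per Mb (36.4 to 50.4) in replicate 1 and 57.8 (50.1 to 66.4) in replicate 2, and from 10 to 50 kb the density was 12.9 and 14.2. From 100 to 200 kb it was 11.1 (10.03 to 12.2) and 15.5 (14.3 to 16.9), and from 300 to 400 kb 8.90 and 14.0. In domains of 300 to under 800 kb the same bins held more. The first 10 kb held 47.5 (45.4 to 49.6) and 78.4 (75.8 to 81.2) there, which overlaps the members' interval in replicate 1 and lies above it in replicate 2. From 100 to 200 kb these domains held 13.4 (13.0 to 13.7) and 20.2 (19.7 to 20.6), above the members in both replicates. The lower anchor density of the members was thus found in their interior as well as over their whole length.

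**Figure D3:**
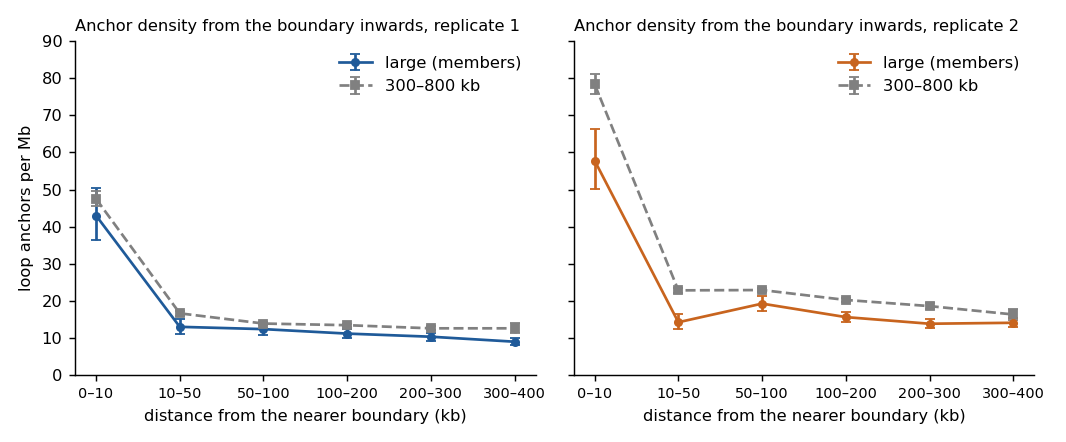
Loop anchors per Mb by distance in kb from the nearer boundary of the level 0 domain, for replicate 1 (left) and replicate 2 (right), members in colour and domains of 300 to under 800 kb in grey, with exact 95% Poisson intervals as bars. Density fell from 43.0 and 57.8 in the first 10 kb of the members to 12.9 and 14.2 in the next 40 kb.

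Loops between the 2 boundaries of a member were rare. With an anchor within 2 kb of each boundary, 2 members had such a loop in each replicate, 1.12% (0.309 to 4.0%) in replicate 1 and 1.16% (0.318 to 4.12%) in replicate 2. The share was 6.03% and 8.03% in domains of 300 to under 800 kb, 10.02% and 17.3% in those of 100 to under 300 kb and 9.82% and 25.4% in those under 100 kb. Large domains with a level 3 domain had such a loop in 2 of 156 cases (0.352 to 4.55%) and 3 of 153 (0.669 to 5.61%). These intervals overlapped those of the members, so the rarity was not particular to the members. Such a loop must be about as long as its domain, while the median loop of a member measured 130 and 110 kb. The part of size in these shares was not tested. All 4 loops between the boundaries of members were found in members of under 1 Mb. With an anchor within 25 kb of each boundary the members' share was 3.37% (1.55 to 7.16%) and 4.05% (1.97 to 8.12%). It was 14.7% and 21.4% in domains of 300 to under 800 kb. In large domains with a level 3 domain it was 3.21% (1.38 to 7.28%) and 7.19% (4.06 to 12.4%), which overlaps the members in both replicates. From 1 Mb no member had such a loop within 2 kb. When loops of the other replicate were used, 4 members of replicate 1 and 2 of replicate 2 had one.

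In replicate 1 the loop with the most contacts closed the domain chr1:144880001-145680000 (800 kb) with 32 contacts, 3.24 times the local background, and the other closed chr7:54750001-55560000 (810 kb) with 30 contacts, 3.88 times. In replicate 2 they closed chr5:75380001-76210000 (830 kb) with 38 contacts, 5.50 times, and chr6:43840001-44790000 (950 kb) with 13 contacts, 7.79 times. Both loops of replicate 1 had 25-kb anchors, which reach further around a boundary than the 10-kb anchors of replicate 2. The 4 domains were different ones. The boundaries of chr5:75380001-76210000 were the only ones joined in both lists, since replicate 1 had a loop there of 21 contacts, 6.80 times the local background. A member of replicate 1 began within 10 kb of that domain's start but ended later, at chr5:75370001-76340000 (970 kb), and its own boundaries were joined by a second loop of the replicate 2 list with 28 contacts.

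Single boundaries carried anchors far more often. A loop that ran inwards from 1 boundary was present in 90 members of replicate 1 (50.6%) and 94 of replicate 2 (54.3%), against 50.05% and 65.3% of the domains of 300 to under 800 kb. Anchors of any loop lay within 2 kb of 46.1% and 54.9% of the members' ends, against 52.9% and 62.5% in that class. Both ends had an anchor in 38 members (21.3%, 16.0 to 27.9%) of replicate 1 and 55 (31.8%, 25.3 to 39.1%) of replicate 2, against 28.9% and 41.0%. In most of these members the anchors at the 2 ends therefore belonged to different loops.

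The same domain was found in the other replicate for a small share of the members. A level 0 domain with both boundaries within 10 kb was present for 24 members of replicate 1, 13.5% (9.23 to 19.3%), and 23 of replicate 2, 13.3% (9.02 to 19.2%). Level 0 domains of 300 to under 800 kb were matched more often, at 24.5% (22.7 to 26.4%) and 24.9% (23.1 to 26.8%). Large domains with a level 3 domain were matched at 15.4% and 16.3%, inside the members' intervals. Within 50 kb, 21.9% (16.5 to 28.5%) and 27.2% (21.1 to 34.2%) of the members were matched, against 39.2% (37.2 to 41.3%) and 39.3% (37.2 to 41.4%) of the domains of 300 to under 800 kb. Of the matched domains, 11 of 24 and 10 of 23 held a level 3 domain in the other replicate and so fell outside the selection there, which left 13 pairs of members.

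More often the other replicate had several smaller domains in place of the member. For 74 members of replicate 1, 41.6% (34.6 to 48.9%), and 68 of replicate 2, 39.3% (32.3 to 46.7%), at least 2 level 0 domains of the other replicate lay within the member and covered 80% of it or more. The share was 18.5% and 18.2% in domains of 300 to under 800 kb, which have less room for such a split because no domain was shorter than 50 kb. In large domains with a level 3 domain it was 32.1% (25.2 to 39.7%) and 30.1% (23.4 to 37.7%), and these intervals overlapped those of the members. Of the split members, 31 and 28 fell into 2 pieces, 20 and 19 into 3, and 23 and 21 into 4 or more. The largest piece took a median of 58.7% of the member in replicate 1 and 56.2% in replicate 2. In 2 and 6 of them it took 90% or more, as for the largest member of replicate 2, where replicate 1 had domains of 2050 and 110 kb.

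The rest were divided between 2 other outcomes. A larger level 0 domain contained the member in 32 cases (18.0%) in replicate 1 and 40 (23.1%) in replicate 2, and in 48 (27.0%) and 42 (24.3%) the boundaries lay elsewhere in none of these ways. A single level 0 domain of the other replicate covered at least 90% of the member in 73 (41.0%) and 87 cases (50.3%). The shares were 60.4% and 60.6% in domains of 300 to under 800 kb and 57.7% and 50.3% in large domains with a level 3 domain. Even the largest covered under 50% in 36 (20.2%) and 30 cases (17.3%), against 8.1% and 6.9% and against 9.6% and 15.7% in these 2 classes. Members of the 2 replicates shared 59.72 Mb, 30.8% of their length in replicate 1 and 32.4% in replicate 2.

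**Figure D4:**
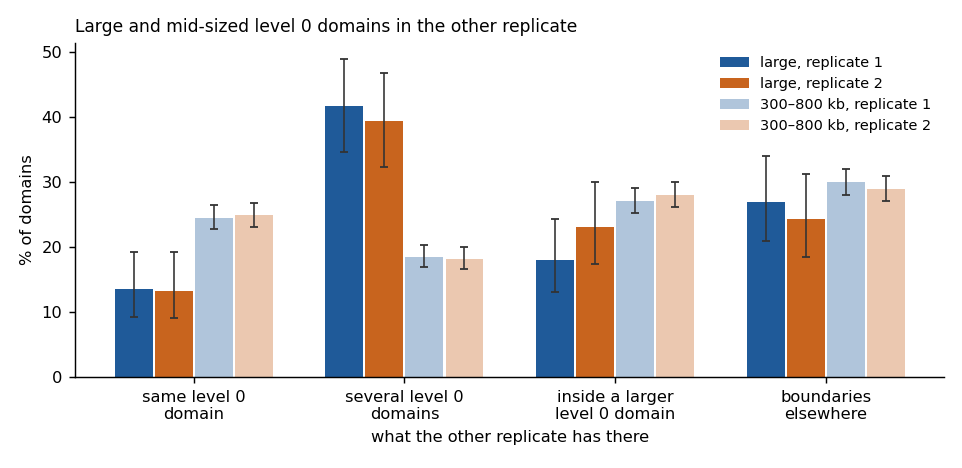
Share of level 0 domains in % by what the other replicate had at the same place, for members (dark) and domains of 300 to under 800 kb (pale), replicate 1 in blue and replicate 2 in orange, with 95% Wilson intervals as bars. Several smaller domains stood in place of 41.6% and 39.3% of the members but of 18.5% and 18.2% of the smaller class.

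Single boundaries were also looked up in the other replicate. Both ends of the member were level 0 boundaries in the other replicate for 39.9% (33.0 to 47.2%) and 37.0% (30.2 to 44.4%) of the members, against 37.0% and 38.3% of the domains of 300 to under 800 kb. Neither end was one for 32 members of replicate 1 (18.0%, 13.0 to 24.3%) and 23 of replicate 2 (13.3%, 9.02 to 19.2%). The shares of 16.2% and 17.1% in domains of 300 to under 800 kb lie inside these intervals.

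Level 0 boundaries that the other replicate had inside a member lay near the sub-domain boundaries of the member more often than grid positions did. In the split members, the other replicate placed 206 level 0 boundaries inside those of replicate 1 and 177 inside those of replicate 2. Of these, 51.0% (44.2 to 57.7%) and 48.0% (40.8 to 55.3%) were within 10 kb of a sub-domain boundary of the member itself, and 42.2% and 37.9% were within 10 kb of a level 1 boundary. Only 12.8% and 11.7% of all 10-kb grid positions inside these members were as near to a sub-domain boundary. Read the other way, 30.7% (26.1 to 35.8%) and 28.3% (23.5 to 33.7%) of the sub-domain boundaries inside the split members, and 20.2% and 16.2% of those inside all members, were within 10 kb of a level 0 boundary of the other replicate. Loops of the member ran across 53.9% and 54.8% of the additional boundaries. The share of all grid positions that a loop ran across was not computed, so these values have no background.

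The member of replicate 1 with the most pieces lay at chr1:204520001-205850000 (1330 kb). Replicate 1 divided it into 4 sub-domains of level 1 with 4 of level 2 below them. Replicate 2 had 8 level 0 domains there, of 210, 210, 200, 100, 200, 180, 50 and 180 kb, that filled it without a gap and had no sub-domains of their own. Replicate 1 had 10 loops in the interval, 7 of them with an anchor midpoint 442.5 or 917.5 kb from its start, and replicate 2 had 7. Loops of 475 and 275 kb in replicate 1 and of 500 kb in replicate 2 ran across the boundaries of replicate 2. In replicate 2 the member with the most pieces lay at chr2:237880001-239230000 (1350 kb), near the end of its chromosome, and was matched by 7 level 0 domains of replicate 1 that covered 94.8% of it. It held 12 loops, and replicate 1 had 12 there too.

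Only 4 members had identical boundaries in both replicates. The largest lay at chr4:58760001-59890000 (1130 kb), with 7 sub-domains and 5 loops in replicate 1 and 4 sub-domains and 6 loops in replicate 2. The next, at chr2:157570001-158580000 (1010 kb), held 9 and 7 sub-domains and 11 and 16 loops. It was divided into 5 level 1 sub-domains in each replicate, and the boundaries at 450 and 910 kb from its start were the same in both. The third, at chr3:68830001-69800000 (970 kb), was divided in 2 in both replicates and held no loop in replicate 1 and 1 in replicate 2. The smallest, at chr9:117680001-118640000 (960 kb), held 7 and 8 sub-domains and 11 and 13 loops. None of the 4 had a loop between its boundaries in either replicate.

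**Figure D5:**
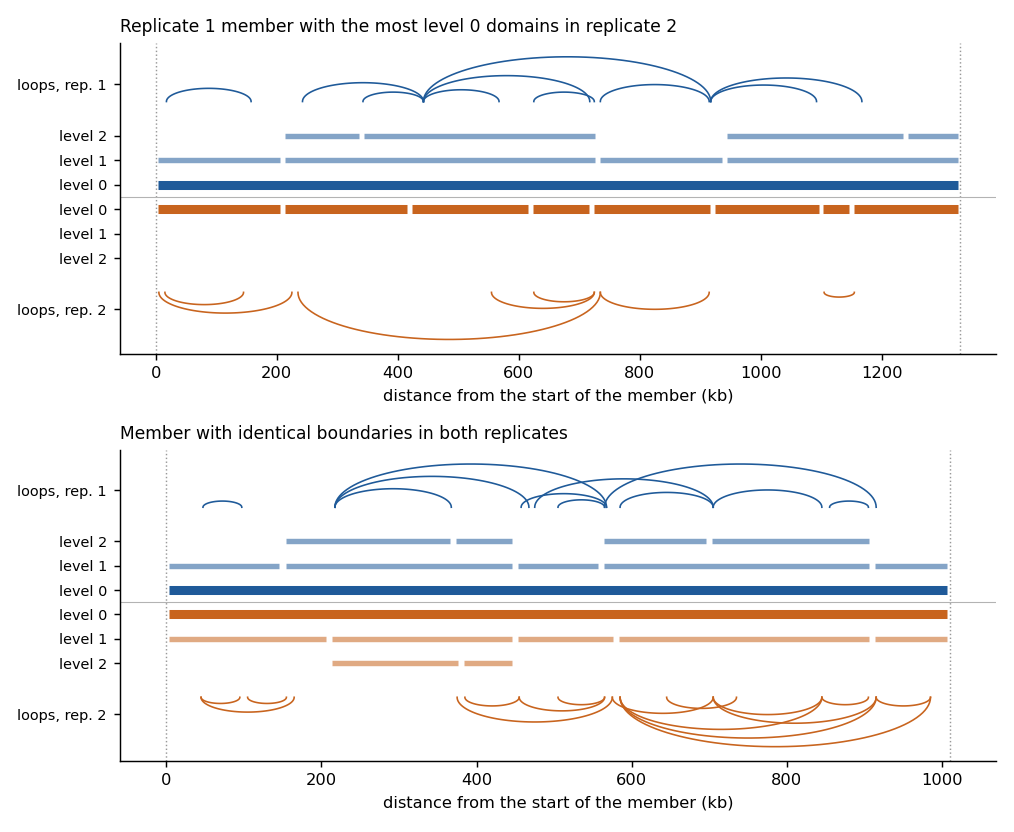
Domains (bars, by level) and loops inside (arcs) of replicate 1 (blue, above the line) and replicate 2 (orange, below) against distance in kb from the start of the member, for the 1330-kb member of replicate 1 that was 8 level 0 domains in replicate 2 (upper) and the 1010-kb member with identical boundaries in both (lower). Arc heights follow loop length, and only arcs with both anchors inside the member are drawn.

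What the other replicate had in place of a member went with its loop density only in part. In replicate 1, members found as several domains held 5.84 loops per Mb (5.33 to 6.39), those inside a larger domain 2.85 (2.31 to 3.48), those with the same domain 4.55 (3.74 to 5.49) and those with boundaries elsewhere 3.58 (3.10 to 4.13). In replicate 2 the values were 7.0 (6.42 to 7.60), 4.54 (3.91 to 5.25), 7.84 (6.70 to 9.12) and 5.50 (4.82 to 6.24). In both replicates the members inside a larger domain held the fewest loops per Mb and fewer than those found as several domains. In replicate 1, 62.5% of the members inside a larger domain lay in the chromosome middle, against 37.8% of those found as several domains. In replicate 2 these shares were 50% and 51.5%. The part of position in these densities was not tested. The order of members with the same domain and members found as several domains was opposite in the 2 replicates, with overlapping intervals, and the intervals of members inside a larger domain and members with boundaries elsewhere overlapped as well.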

How the data were processed

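Hi-C libraries of maize B73 leaf were made with a Dovetail kit for 2 replicates. Per the labels and methods, the authors filtered the reads, aligned them with Juicer (genome B73 AGPv4), built matrices with runHiC, and ran HiTAD for nested domains with settings left at default. Loops come from HICCUPS, as shipped in Juicer Tools 1.9.9 for replicate 1 and in 1.14.08 for replicate 2, and no replicates were merged. The deposited domain lists give start, end and level. The deposited loop lists give anchors, the whole-number count of contacts at each loop (not normalized), the expected contacts of 4 local backgrounds as a signal, and a q-value against each, as the authors' software wrote them. All q-values kept were below 0.1. Loops of replicate 1 have anchors of 5, 10 or 25 kb and those of replicate 2 of 10 kb only, which changes their number and how near to a boundary an anchor can reach. There were 16863 and 25628 loops on chromosomes 1 to 10. The unplaced sequence has no domains and was left out. The lists do not state the total depth, so the precision rests on the number of domains and loops and on the contacts per loop.

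The rule on size (800 kb) and level (3) was applied to each list. A loop was inside a domain when both anchor midpoints were, and loop strength was observed contacts over the donut background. Boundaries matched within 10 kb between replicates and within 2 kb of an anchor. Loops were the same in both lists when both anchors overlapped by at least 1 bp, which the wider 25-kb anchors of replicate 1 make easier. Pieces were level 0 domains of the other replicate inside the member, give or take 10 kb, covering at least 80% of it. Chromosome length was the largest coordinate in the files. Loops of the 2 replicates, and neighbouring domains, are not independent, and the members are not replicates of a condition. Members and measures were chosen with earlier results of these data known. Single domains were named by a rule: the 3 largest, the 3 largest identical in both replicates, those with the most loops, no loop and the most pieces, loops between boundaries with the most contacts, and those next to the threshold. The second boundary loop of each replicate, the fourth identical domain and the members without sub-domains are named beside them. Scripts used Python 3.11.15 with pandas 2.3.3, numpy 2.4.6 and scipy 1.17.1, and were tested on simulated domains and loops, where 15 of 15 known answers were recovered. Alternatives tried were other thresholds, tolerances, loop subsets, reference classes and each replicate alone. The genome sequence and gene annotation of AGPv4 were not used here, so no genes or sequences are given.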

Additional observations from a re-analysis of the deposited data

Results flagged for a closer look

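The ratio of loops per Mb in large over smaller level 0 domains lay on different sides of 1 along the chromosomes. In both replicates the ratio of members over all level 0 domains under 800 kb was below 1 in the left part (0.697 in replicate 1 and 0.647 in replicate 2) and in the middle part (0.816 and 0.705), and above 1 in the right part (1.07 and 1.11). In the right part the intervals of members (6.87 to 8.47 and 10.5 to 12.5 loops per Mb) and smaller domains (6.96 to 7.39 and 10.1 to 10.6) overlapped in both replicates, and the difference between the parts was not tested. For loop anchors per Mb the ratios were below 1 in all 3 parts.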

How the results depend on the processing

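Under 50 alternatives to the 9 main results, 13 values moved by less than the spread between the 2 replicates (counts by less than 1.5 times), 37 moved by more, and none of the ratios crossed 1. With 2 replicates that spread is itself poorly known. Values below are means over both replicates. From 700 kb there were 269.5 members with a median size of 860 kb, 96.8% had sub-domains, 1.69% had a loop between their boundaries, 15.4% had the same domain in the other replicate and 37.0% several. From 1 Mb there were 79.5 members with a median of 1162.5 kb, 99.3% had sub-domains, 0 had a loop between their boundaries, 9.88% the same domain and 47.4% several, and the ratios to smaller domains were 0.672 for loops and 0.504 for anchors per Mb. With level 3 domains kept there were 330 members with a median of 992.5 kb, 51.8% lay in the middle, 1.37% had a loop between their boundaries, 14.5% the same domain and 36.0% several, and the ratios were 0.720 and 0.533. The middle held 69.2% when taken as 0.2 to 0.8 and 22.2% as 0.4 to 0.6. Against smaller domains of 300 to 800 kb the ratios were 0.730 for loops and 0.660 for anchors, and bin by bin of 0.1 of the chromosome length, an alternative added after the data were seen, 0.875 and 0.642. Loops of the other replicate gave 0.830 for loops. Loops between boundaries were at 0.578% with 10-kb anchors only (0 in replicate 1), 1.70% within 10 kb and 3.71% within 25 kb. The same domain was found for 3.70% with identical boundaries, 24.5% within 50 kb and 15.1% at any level, and several for 46.4% with a tolerance of 50 kb and 45.3% with a cover of 50%. Each replicate alone gave 173 to 178 members, medians of 960 to 980 kb, 44.4 to 48.6% in the middle, 97.7 to 98.9% with sub-domains, ratios of 0.756 to 0.805 and 0.548 to 0.611, and shares of 1.12 to 1.16%, 13.3 to 13.5% and 39.3 to 41.6%. No paired analysis was possible because there was 1 group and no test.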
